A study of Mus musculus with 12 samples.

Results

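Cyclic nucleotide phosphodiesterases were described in the lungs of newborn Foxf1+/- mice and of their wildtype littermates. The set held 10 genes, which were Pde4b, Pde4a, Pde4d, Pde3a, Pde3b, Pde5a, Pde1a, Pde2a, Pde7a and Pde10a, and its probes were all those that the array annotation assigned to one of these symbols. They came to 28 of 45263 intact probes and 10 of 19057 genes with a symbol of their own on the array. Pde4b had been picked for its difference between the genotypes in these same arrays, so the genotype values of the set are given as a description, without a p-value.

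The series comprised 6 Foxf1+/- pups, in which 1 Foxf1 allele lacks the exon that encodes the forkhead DNA-binding domain together with part of the promoter, and 6 wildtype littermates as controls. All pups were taken at postnatal day 0.5 and were of mixed 129/C57BL6/J background. The allele had been made with the widely active EIIa-Cre and passed through the germline, so that every cell of a Foxf1+/- lung carries it and no lung cell type was targeted on its own. RNA came from whole lung, with 1 lung and 1 Illumina MouseWG-6 v2.0 bead array per pup.

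Phosphodiesterases end cyclic nucleotide signals. Adenylate cyclases, driven by G protein-coupled receptors, make cyclic AMP, and guanylate cyclases, driven by nitric oxide or natriuretic peptides, make cyclic GMP. Both messengers are broken down by phosphodiesterases, which differ in substrate and control. The PDE4 and PDE7 enzymes cleave cyclic AMP only, PDE5 cleaves cyclic GMP only, PDE3 cleaves cyclic AMP and is slowed by cyclic GMP, and PDE1, PDE2 and PDE10 take both. In the lung, cyclic AMP and cyclic GMP relax vascular and airway smooth muscle and tighten the endothelial barrier, and inhibitors of PDE3, PDE4 and PDE5 are used as drugs in lung disease. PDE4 genes give long and short proteins from several promoters, so that a probe for 1 transcript need not see the others.

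Pde4b carries the largest difference of the set and has several start sites. The 250 bases before 4 of its RefSeq starts are therefore shown (build GRCm38.p6, 5′ to 3′). The corresponding window of Pde4d, another PDE4 gene, with a small difference, stands beside them. Capitals mark the forkhead core TAAACA or its complement TGTTTA and the cyclic AMP response half-site TGACG or its complement CGTCA, and the full element TGACGTCA, which contains the half-site, was searched as well.
Pde4b window 1, chr4:102421305-102421554, + strand: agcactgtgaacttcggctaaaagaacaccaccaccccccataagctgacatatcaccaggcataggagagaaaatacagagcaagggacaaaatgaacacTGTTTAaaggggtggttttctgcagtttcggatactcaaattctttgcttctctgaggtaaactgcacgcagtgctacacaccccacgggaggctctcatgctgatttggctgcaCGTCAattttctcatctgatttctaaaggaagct
Pde4b window 2, chr4:102569810-102570059, + strand: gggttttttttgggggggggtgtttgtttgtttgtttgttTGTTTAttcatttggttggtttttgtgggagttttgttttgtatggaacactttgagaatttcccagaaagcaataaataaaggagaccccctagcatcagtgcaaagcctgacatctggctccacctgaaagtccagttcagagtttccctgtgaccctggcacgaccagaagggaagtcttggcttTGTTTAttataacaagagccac
Pde4b window 3, chr4:102587308-102587557, + strand: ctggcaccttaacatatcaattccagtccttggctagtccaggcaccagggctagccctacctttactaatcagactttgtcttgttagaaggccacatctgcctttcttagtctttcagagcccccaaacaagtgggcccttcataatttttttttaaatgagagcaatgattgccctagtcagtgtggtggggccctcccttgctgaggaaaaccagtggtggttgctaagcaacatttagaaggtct
Pde4b window 4, chr4:102589593-102589842, + strand: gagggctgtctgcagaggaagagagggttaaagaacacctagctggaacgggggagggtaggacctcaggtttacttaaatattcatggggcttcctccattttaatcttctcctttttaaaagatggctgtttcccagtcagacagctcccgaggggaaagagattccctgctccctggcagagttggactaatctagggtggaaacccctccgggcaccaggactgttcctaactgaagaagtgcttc
Pde4d window, chr13:108653927-108654176, + strand: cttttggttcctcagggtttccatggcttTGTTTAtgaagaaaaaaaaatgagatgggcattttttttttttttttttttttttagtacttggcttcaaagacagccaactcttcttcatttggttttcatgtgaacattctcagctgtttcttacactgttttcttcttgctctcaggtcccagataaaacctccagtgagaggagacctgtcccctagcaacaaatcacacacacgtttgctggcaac

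The forkhead core stood in 2 of 4 Pde4b windows, in the Pde4d window and in 0 of 3 Pde4a windows. It stood in 12% of the 32851 mouse promoter windows of the same length, which were not matched for base composition. The share of G and C was 46.0% and 43.2% in the Pde4b windows with the core and 38.8% in the Pde4d window. The half-site stood in 1 of 4 Pde4b windows, against 17.8% of all windows, and the full element, which 1.55% of all windows hold, in none of them. Over the set, 7 of 10 genes had a window, 20 windows in all, of which 4 held the forkhead core, 3 the half-site and 0 the full element. For Pde3a, Pde3b and Pde7a no window was used here. All 4 Pde4b windows lie within the annotated span of the gene, on its coding strand. The start of that span, chr4:102087332, had no window here. A match of letters is no evidence of binding, and which Pde4b start feeds the transcript that each probe sees was not analysed here.

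The arrays fell into 6 brighter ones with raw median signals of 72.8 to 89.3 (experiment A, 4 Foxf1+/- and 2 wildtype) and 6 dimmer ones of 57.3 to 62.6 (experiment B, 2 Foxf1+/- and 4 wildtype). This split was inferred from the signal, since the study ran its arrays in 2 experiments and the labels do not tell them apart, and it entered the limma model beside genotype. Fold changes, with the SE from that model, are log2 ratios of Foxf1+/- to wildtype signal. A call is an adjusted p under 0.05 after Benjamini-Hochberg adjustment over all 33947 probes tested. The p-values weigh a difference against the spread left between these lungs by the model, which did not include litter. Foxf1 itself had a log2 signal of 10.83 ± 0.55 in Foxf1+/- lungs and 11.56 ± 0.38 in wildtype lungs (SD, n = 6 each), a fold change of -1.0 ± 0.13 with an adjusted p of 0.00224 in limma. Without the experiment in the model the adjusted p was 0.184, and whether the probe lies within the deleted exon was not established. All 10 lung epithelial markers were above the floor of the arrays and 0 were called. Of 12 smooth muscle and pericyte markers 0 were called and 1, Cnn1, was near the floor. Of 10 mast cell markers 6 were called higher and 1 lower. The summed heart muscle signal was 13201 to 105907 in Foxf1+/- lungs and 16448 to 80558 in wildtype lungs, a wide spread within both genotypes.

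Pde4b, a cyclic AMP-specific phosphodiesterase of immune, endothelial and smooth muscle cells, lies on chr4:102087332-102607275 (GRCm38) and was represented by 4 probes. On the brightest probe its log2 signal had a lowest value of 8.47, a median of 9.10 and a highest of 9.27 in Foxf1+/- lungs, against 10.64, 10.79 and 11.08 in wildtype lungs. Every Foxf1+/- lung lay below every wildtype lung, and the gap between the genotypes was wider than the range within either. The means were 9.0 ± 0.31 in Foxf1+/- lungs and 10.84 ± 0.19 in wildtype lungs (SD, n = 6 each), and the model gave a fold change of -1.76 ± 0.13, or 3.39-fold lower signal in Foxf1+/- lungs. It ranked 6th from the most negative of the 33947 fold changes. In raw signal the same probe read 380 to 843 in Foxf1+/- lungs and 1236 to 2217 in wildtype lungs. In bulk tissue fewer cells that express a gene and less RNA per cell cannot be told apart.

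Both inferred array experiments showed the difference, but Pde4b was chosen from these same arrays, so neither is an independent repeat. In experiment A the Foxf1+/- lungs averaged 8.88 and the wildtype lungs 10.76, a difference of -1.88, and in experiment B the Foxf1+/- lungs averaged 9.24 and the wildtype lungs 10.88, a difference of -1.64. The test of whether the genotype difference itself differed between the experiments, which the choice of Pde4b did not use, gave an unadjusted p of 0.376 and an adjusted p of 0.999 in limma. Leaving out single arrays moved the Pde4b fold change between -1.81 and -1.68.

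The summed level of alveolar capillary markers was lower in Foxf1+/- lungs, though not every marker was. These markers were listed with earlier results of these data known, so the difference is a description and no independent support. Of 10 genes on that list 9 were tested, Car4, Ednrb, Tmem100 and Hpgd were called lower, Gpihbp1 was called higher, and Fibin was near the floor. The summed signal of the list was 15691 to 19808 in Foxf1+/- lungs and 23500 to 29359 in wildtype lungs, without overlap. For 12 general endothelial markers, of which Cldn5 and Ptprb were called lower and Emcn higher and Erg was near the floor, the sum was 51500 to 68860 in Foxf1+/- lungs and 60941 to 74069 in wildtype lungs, with overlap. The sums are of linear signal, so the brightest genes weigh most in them. The median log2 fold change was -0.15 for the alveolar capillary list, -0.13 for the endothelial list and -0.16 for the lung epithelial markers. Among immune lists other than mast cells, 8 macrophage and monocyte and 10 T and NK cell markers were tested, and 0 were called. Of these, 1 and 4 were near the floor. Of 9 tested neutrophil markers, Ltf was called lower and Lcn2 higher. The medians were -0.06, -0.19 and -0.16 in this order. The part of alveolar capillary, other endothelial, immune and smooth muscle cells in the Pde4b value was not tested.

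The other 3 Pde4b probes did not show a difference of this size. All lay near the floor, defined here as a mean within 0.5 of the 5th percentile of probe means (log2 signal of at most 6.38). Why these probes differed from the brightest one was not tested. The second probe had a median of 6.22 in Foxf1+/- lungs and 6.2 in wildtype lungs and a fold change of -0.14 ± 0.07. The dimmest pair had fold changes of -0.05 ± 0.06 and -0.08 ± 0.04. In the model all 4 probes carried a negative sign, but 2 of the dim ones did not keep it within both experiments. The second probe had -0.29 in A and 0.01 in B (interaction, unadjusted p = 0.018 and adjusted p = 0.999 in limma). The brighter of the dimmest pair had 0.05 in A and -0.15 in B. The brightest probe was designed on a cDNA clone record and the second on the RefSeq transcript record of the gene, and the transcripts behind the other records were not analysed here. A mean over the 4 probes came to -0.51.

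**Figure D1:**
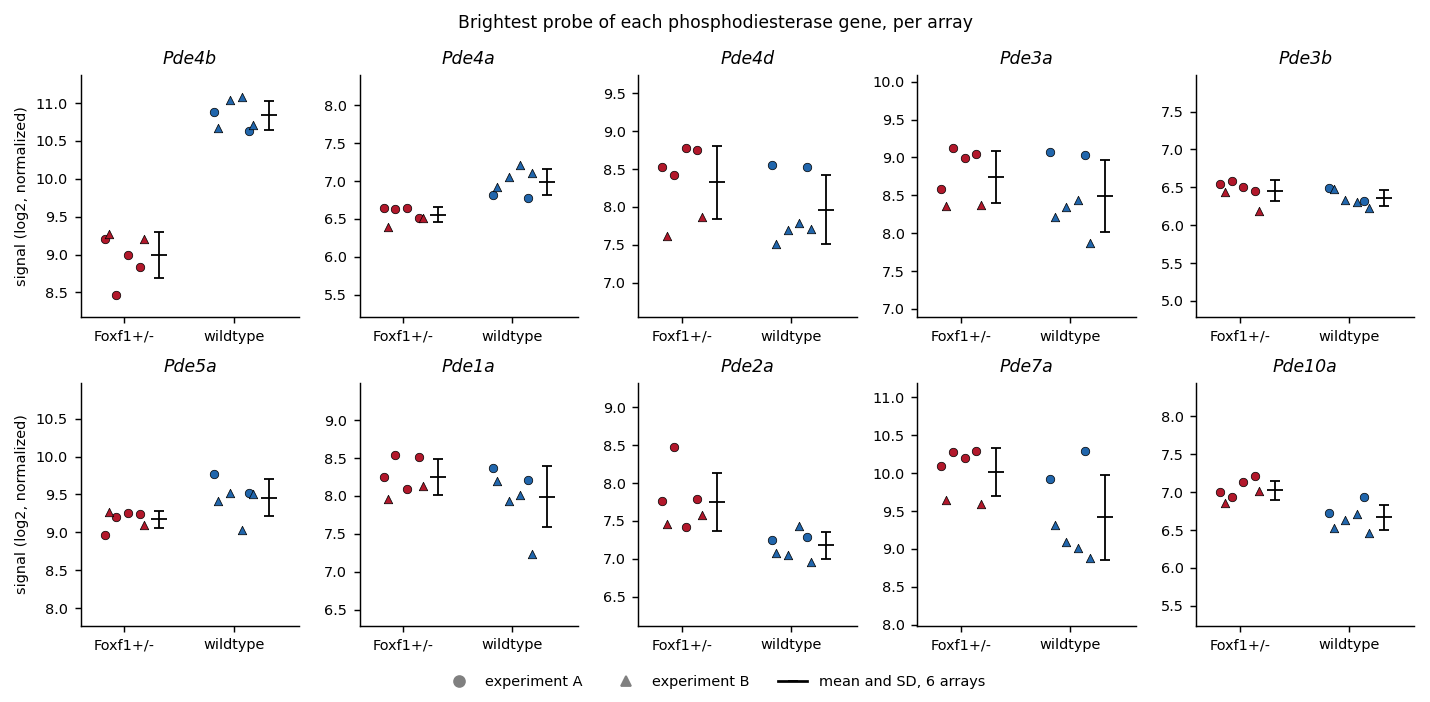
Log2 normalized signal of the brightest probe of each of the 10 genes on every array (circles, experiment A; triangles, experiment B), with the mean and SD of 6 Foxf1+/- lungs on the left and 6 wildtype lungs on the right of each panel. The axes do not start at 0. For Pde4b all 6 Foxf1+/- lungs sit between 8.47 and 9.27, below all wildtype lungs, whereas for Pde4d, Pde3a and Pde7a the circles sit above the triangles in both genotypes.

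Among the other PDE4 genes, Pde4a (chr9:21165700-21213248), a cyclic AMP-specific enzyme of many tissues, had 1 of 3 tested probes with lower signal in Foxf1+/- lungs. The brightest probe had a lowest value of 6.40, a median of 6.57 and a highest of 6.65 in Foxf1+/- lungs, against 6.78, 6.99 and 7.22 in wildtype lungs. The genotypes did not overlap, although the signal was low and the gap between them narrow. The fold change was -0.41 ± 0.08, made up of -0.19 among the arrays of experiment A and -0.63 among those of B, and the test of that change between experiments gave an unadjusted p of 0.004 and an adjusted p of 0.999 in limma. Without Foxf1+/- replicate 5 or replicate 6, both of experiment B, the probe was no longer called. The other tested probes, designed on another transcript record, had fold changes of 0.03 ± 0.09 and -0.00 ± 0.06.

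Pde4d (chr13:108654177-109955969), a major cyclic AMP phosphodiesterase of heart and smooth muscle, had 5 probes, of which 4 were tested. Its brightest probe ranged over 7.61 to 8.78 with a median of 8.47 in Foxf1+/- lungs, against 7.51 to 8.55 with a median of 7.75 in wildtype lungs. The genotypes overlapped over most of their range, and 4 Foxf1+/- but only 2 wildtype lungs were in the brighter experiment, where the probe read higher in both genotypes. Within experiment A the means were 8.62 in Foxf1+/- lungs and 8.54 in wildtype lungs, within experiment B 7.74 in Foxf1+/- lungs and 7.68 in wildtype lungs, and the fold change was 0.07 ± 0.08. The remaining tested probes lay between -0.11 and 0.05.

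PDE3 enzymes, which couple the pathways because cyclic GMP slows their cleavage of cyclic AMP, differed little. Pde3a (chr6:141249269-141506862), the form of heart, platelets and vascular smooth muscle, had a lowest value of 8.36, a median of 8.79 and a highest of 9.12 in Foxf1+/- lungs, against 7.87, 8.39 and 9.07 in wildtype lungs. Its 3 probes had fold changes of 0.02 ± 0.12, 0.02 ± 0.06 and -0.02 ± 0.07. The single probe of Pde3b (chr7:114415222-114537938), prominent in fat and liver, ranged over 6.19 to 6.58 in Foxf1+/- lungs and 6.23 to 6.49 in wildtype lungs, and its fold change was 0.05 ± 0.07. On both genes the genotypes overlapped.

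The cyclic GMP-specific Pde5a (chr3:122729158-122859374), the target of sildenafil in pulmonary vascular smooth muscle, had lower values in Foxf1+/- lungs without being called. On the brightest probe the lowest value, median and highest value were 8.97, 9.22 and 9.26 in Foxf1+/- lungs, against 9.03, 9.51 and 9.76 in wildtype lungs. The wildtype range contained all but the lowest Foxf1+/- value, as wildtype replicate 5 was low at 9.03. The fold change was -0.33 ± 0.10, or -0.48 within A and -0.19 within B, and the dimmer probe had -0.08 ± 0.08.

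Of the enzymes that take both nucleotides, Pde2a (chr7:101421691-101512829), which cyclic GMP activates and which endothelial cells express, had the largest positive fold change of the set. Its only probe had a lowest value of 7.42, a median of 7.67 and a highest of 8.47 in Foxf1+/- lungs, against 6.96, 7.16 and 7.43 in wildtype lungs. The ranges overlapped only by the lowest Foxf1+/- and the highest wildtype lung, and the highest value, in Foxf1+/- replicate 2, stood apart. The fold change was 0.49 ± 0.16, or 0.59 within A and 0.39 within B, and it was not called.

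Pde1a (chr2:79834453-80196522), which calcium and calmodulin switch on, had 4 probes with fold changes of 0.13 ± 0.15, 0.15 ± 0.11, 0.12 ± 0.10 and -0.01 ± 0.07. Its brightest probe ranged over 7.96 to 8.54 in Foxf1+/- lungs and 7.23 to 8.37 in wildtype lungs, with wildtype replicate 6 the lowest. It was also the only one of the 25 tested probes of the set whose signal went with the summed heart muscle signal when that was added to the model, with a slope of 0.23 per log2 unit and an adjusted p of 0.0257 in limma, where 0.657% of all tested probes passed. Pde10a (chr17:8525187-8986648), best known from the striatum of the brain, had a lowest value of 6.86, a median of 7.01 and a highest of 7.21 in Foxf1+/- lungs, against 6.47, 6.67 and 6.93 in wildtype lungs. The highest wildtype lung reached into the Foxf1+/- range, and the fold change was 0.30 ± 0.07. Its call was lost when any 1 of 8 of the 12 arrays was left out, which were Foxf1+/- replicates 3, 4, 5 and 6 and wildtype replicates 1, 3, 4 and 6.

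Pde7a (chr3:19223108-19311322), a cyclic AMP-specific enzyme of lymphocytes and many other cells, had the same fold change on both of its probes. The brighter one had a lowest value of 9.60, a median of 10.15 and a highest of 10.30 in Foxf1+/- lungs, against 8.88, 9.20 and 10.29 in wildtype lungs. The wildtype values were split by experiment, at 9.92 and 10.29 in A and no higher than 9.31 in B. The fold change was 0.33 ± 0.11 on this probe and 0.33 ± 0.09 on the other. On the brighter probe the difference was 0.11 within A and 0.55 within B (interaction, unadjusted p = 0.031 and adjusted p = 0.999 in limma), and neither probe was called.

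**Figure D2:**
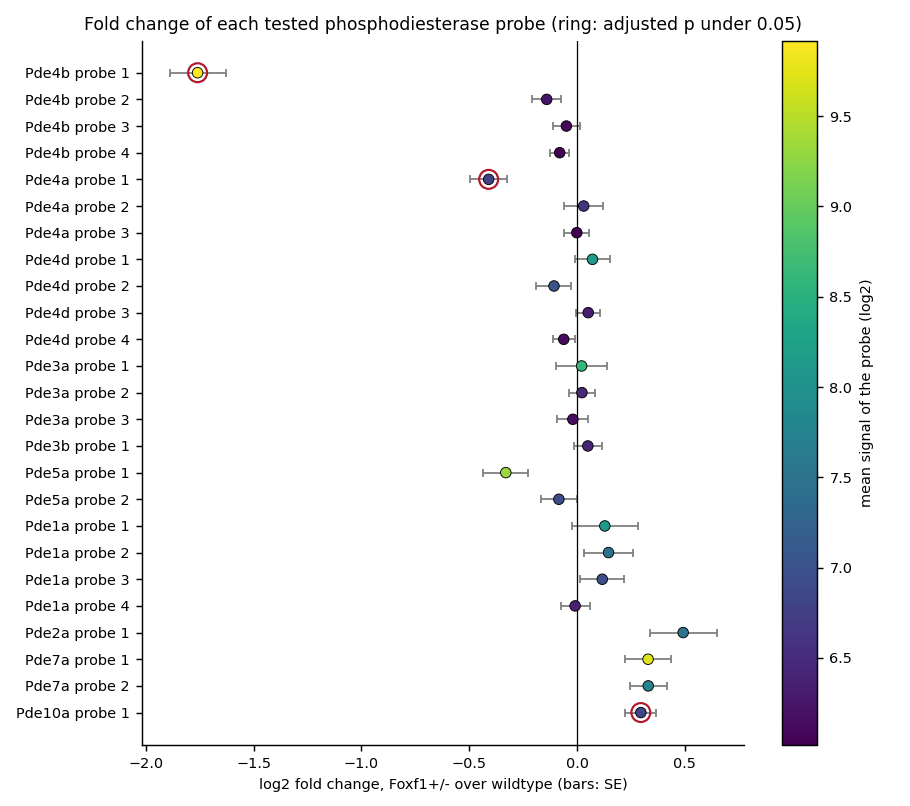
Log2 fold change of Foxf1+/- over wildtype with its SE for each of the 25 tested probes, probes of a gene numbered by brightness and coloured by mean log2 signal, with rings around the 3 called ones. The brightest Pde4b probe stands at -1.76 while the other 3 Pde4b probes, all dim, lie between -0.14 and -0.05.

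Over the set, 25 of 28 probes passed the filter on low signal, and the 3 that did not were the dimmest probes of Pde4a, Pde4d and Pde10a. Of the 25, 8 were near the floor. With 2.97% of all tested probes called, 3 of the 25 were called, the brightest probes of Pde4b and Pde4a lower (1.22% of all probes) and the brightest of Pde10a higher (1.74%). The genotypes did not overlap on 2 of the 25, Pde4b and Pde4a, against 1.72% of all probes. Since Pde4b was chosen from this contrast, nothing is read from these counts. The median fold change of the 25 was 0.02, against 0.00 over all tested probes, with 13 positive and 12 negative signs. Among the 7 genes with several tested probes, Pde4b, Pde5a and Pde7a had 1 sign on all of them.

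On the deposited processed values, which the authors had corrected for the 2 experiments, a limma model of genotype alone called 7.61% of all probes and 7 of the 25. These were the same 3 probes, the brightest of Pde5a with lower signal, and with higher signal the Pde2a probe and both Pde7a probes. Pde4b had a fold change of -1.65 ± 0.11 there, Pde4a -0.29 ± 0.05 and Pde2a 0.41 ± 0.12. With the experiment in the model on the same values 3.96% of all probes and 4 of the 25 were called, and the methods' t-test called 5.48% of all probes and the same 4. These were the brightest probes of Pde4b, Pde4a and Pde10a and the dimmer Pde7a probe, while the brighter Pde7a probe and those of Pde5a and Pde2a were called in the model of genotype alone only.

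The array experiment played no part in choosing the genes. It was inferred from the raw signal of these same arrays, so the p-values for it describe that split and are no independent test. Between experiments A and B 42.2% of all tested probes were called, and 15 of the 25, of which 13 were higher in A and 2 higher in B. On the brightest probe Pde4d was higher in A by 0.87 ± 0.08 (adjusted p = 7.28e-06 in limma), Pde7a by 0.81 ± 0.11 (adjusted p = 8.55e-05) and Pde3a by 0.70 ± 0.12 (adjusted p = 0.000523). For these 3 genes the difference between experiments was larger than that between genotypes, while for Pde4b it was -0.24 ± 0.13 (adjusted p = 0.157). What else separated the experiments, such as litter or handling, was not analysed here. The genotype by experiment interaction was called in 0 probes of the whole table in limma (3.36% of probes had an unadjusted p under 0.05) and in 0 of the 25, 3 of which had an unadjusted p under 0.05.

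Other genes of cyclic nucleotide signalling were taken from 7 lists of 118 genes in all, each by its brightest probe. Of these, 97 were tested, and 3 were called higher and 4 lower, or 7.22%, against 3.61% of 15653 genes on the array (1.82% higher and 1.79% lower). Their median fold change was -0.04, against -0.01 over all genes, and 21 of the 97 were near the floor. The remaining 21 genes, among them the beta-adrenergic receptors, were not analysed here.

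Receptors that raise cyclic AMP held 1 call in each direction. Of 20 such genes and their partners 11 were tested, 1 was called higher and 1 lower, and 4 were near the floor, with a median of -0.07. Ramp3, which turns the calcitonin receptor-like receptor into a receptor for adrenomedullin, averaged 8.95 ± 0.13 in Foxf1+/- lungs and 8.27 ± 0.21 in wildtype lungs (SD, n = 6 each) and rose by 0.67 ± 0.10 on the log2 scale (adjusted p = 0.00552 in limma). Glp1r, the receptor of the incretin GLP-1, averaged 6.30 ± 0.15 in Foxf1+/- lungs and 6.64 ± 0.25 in wildtype lungs and had a fold change of -0.44 ± 0.07 (adjusted p = 0.00747 in limma). Its signal was low in both genotypes. Ramp1, which makes the same partner a receptor for calcitonin gene-related peptide, did not pass, at -0.42 ± 0.11 (adjusted p = 0.0673 in limma).

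The machinery that makes, exports and inhibits the making of cyclic AMP had no call. Of 16 adenylate cyclases, G protein subunits and exporters 15 were tested and 0 called in limma, while 1 passed upwards and 2 downwards before adjustment (p under 0.05), with a median of -0.02. The nearest were Gnas, the stimulatory G protein subunit, at 0.40 ± 0.10 (adjusted p = 0.0516) and Adcy9, an adenylate cyclase, at -0.40 ± 0.11 (adjusted p = 0.0679).

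Downstream of cyclic AMP, 20 of 21 effectors were tested, 1 was called higher and 0 lower, and the median was -0.02. The one was Pkig, an inhibitor of the protein kinase A catalytic subunit, with 10.29 ± 0.19 in Foxf1+/- lungs and 9.66 ± 0.21 in wildtype lungs, which did not overlap, and a rise of 0.69 ± 0.11 (adjusted p = 0.00624 in limma). Prkaca, the catalytic subunit itself, had a fold change of -0.08 ± 0.08. Among 15 tested of 17 CREB factors and CREB targets, Sik1, a kinase induced by cyclic AMP that restrains CREB coactivators, was called higher at 0.63 ± 0.15 (adjusted p = 0.0435 in limma), and 0 were called lower. That call was lost when any 1 of 9 arrays was left out, with an adjusted p of up to 0.17, and the arrays were Foxf1+/- replicates 2, 3, 5 and 6 and wildtype replicates 1, 2, 4, 5 and 6. Creb1 had -0.08 ± 0.06 and the immediate early target Fos 0.23 ± 0.24.

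Of the proteins that bind or anchor PDE4 enzymes 11 of 14 were tested, 0 were called higher and 1 lower, with a median of -0.02. Akap7, an anchor of protein kinase A, averaged 10.50 ± 0.11 in Foxf1+/- lungs and 10.92 ± 0.14 in wildtype lungs and fell by 0.44 ± 0.08 on the log2 scale (adjusted p = 0.0102 in limma). The ranges of the genotypes did not meet. Ndel1 at 0.20 ± 0.06, the arrestin Arrb2 at -0.30 ± 0.10 and Akap9 at -0.22 ± 0.07 did not pass.

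The list of cyclic GMP synthesis and effectors had 15 of 16 genes tested, 0 called higher and 1 lower, and a median of -0.09. Gucy1a1, the alpha subunit of the guanylate cyclase that nitric oxide activates, averaged 12.19 ± 0.18 in Foxf1+/- lungs and 12.73 ± 0.18 in wildtype lungs and fell by 0.46 ± 0.08 on the log2 scale (adjusted p = 0.00865 in limma). Its partner Gucy1b1, the beta subunit, had a fold change of -0.61 ± 0.15 with an adjusted p of 0.0516, and Nos3, the endothelial nitric oxide synthase, 0.34 ± 0.09 with an adjusted p of 0.0637. The natriuretic peptides Nppa and Nppb had the largest fold changes of the list, 1.12 ± 1.33 and 1.80 ± 0.86, and did not pass. Both are hormones of heart muscle, and both went with the summed heart muscle signal (adjusted p = 0.00138 and 0.000333 in limma), a list of which Nppa is itself a member.

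Of the 14 phosphodiesterases outside the set 10 were tested, and 7 of these were near the floor. Pde1b, a calmodulin-dependent enzyme, averaged 8.35 ± 0.21 in Foxf1+/- lungs and 8.53 ± 0.15 in wildtype lungs and fell by 0.29 ± 0.05 on the log2 scale (adjusted p = 0.0129 in limma), a call that was lost without Foxf1+/- replicate 5 or replicate 6 (adjusted p of up to 0.0596). Pde8b, a cyclic AMP-specific enzyme, had -0.35 ± 0.09 with an adjusted p of 0.0502. The median of the list was -0.11, and 0 members were called higher.

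**Figure D3:**
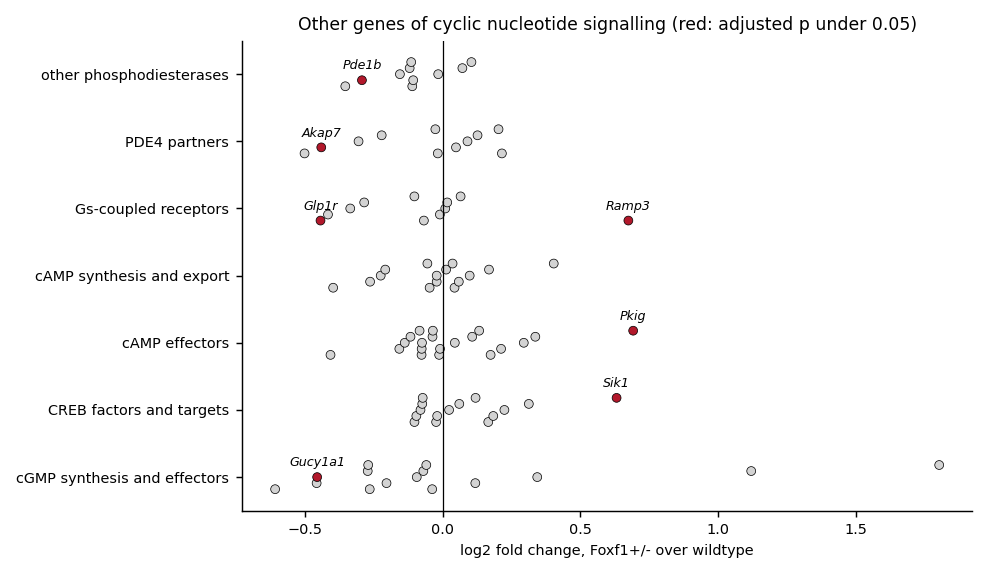
Log2 fold change of Foxf1+/- over wildtype for the 97 tested genes of the 7 lists, 1 point per gene, spread vertically within a list for legibility, with the called genes in red. Ramp3, Pkig and Sik1 lie right of 0 and Pde1b, Akap7, Glp1r and Gucy1a1 left of it, and the points farthest to the right, Nppb at 1.80 and Nppa at 1.12, are not called.

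The array pattern most like that of the brightest Pde4b probe was sought among all tested probes with 1 symbol, as the mean absolute difference over the 12 arrays between log2 signals after each probe's mean was taken out. The nearest 5 genes were Fmo1 at 0.23, Pcdha7 at 0.23, Hpgd at 0.27, Slc6a2 at 0.28 and Ackr2 at 0.30, where the median over all candidates was 0.92 and the 1st percentile 0.63. As Pde4b was chosen for its genotype difference, genes near it share that difference by construction. Fmo1, a flavin-containing monooxygenase, had 10.43 ± 0.23 in Foxf1+/- lungs and 12.03 ± 0.22 in wildtype lungs, and Hpgd, which degrades prostaglandins and is one of the alveolar capillary markers above, had 8.50 ± 0.35 in Foxf1+/- lungs and 10.08 ± 0.09 in wildtype lungs (SD, n = 6 each). Pcdha7, a clustered protocadherin, had 7.43 ± 0.18 in Foxf1+/- lungs and 8.85 ± 0.13 in wildtype lungs. Slc6a2, the noradrenaline transporter, had 6.50 ± 0.13 in Foxf1+/- lungs and 7.91 ± 0.26 in wildtype lungs, a fold change of -1.34. Of its 3 tested probes, those not shown had fold changes no lower than -0.11. Ackr2, a chemokine scavenger, had 8.86 ± 0.13 in Foxf1+/- lungs and 10.23 ± 0.27 in wildtype lungs. Foxf1+/- replicate 2 was the lowest array for Pde4b and the highest Foxf1+/- array for Hpgd.

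**Figure D4:**
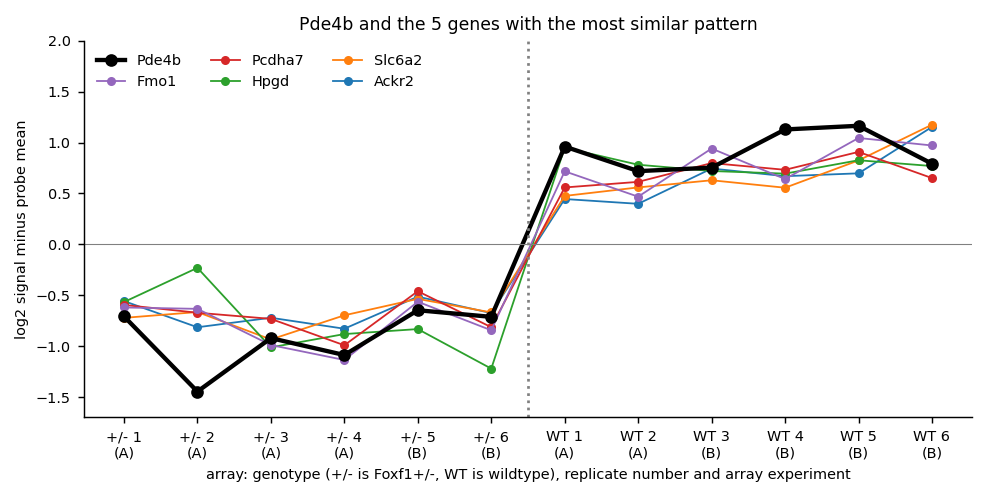
Log2 signal minus the probe mean on each of the 12 arrays, Foxf1+/- left and wildtype right of the dotted line, for Pde4b in black and the 5 genes with the nearest pattern in colour. All 6 profiles lie below 0 on every Foxf1+/- array and above 0 on every wildtype array, and Pde4b lies lowest on Foxf1+/- replicate 2.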

How the data were processed

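Whole lung RNA of 12 pups was hybridized to Illumina MouseWG-6 v2.0 arrays. The authors deposited raw probe intensity on a linear scale, neither background corrected nor normalized, and processed values on a log2 scale, which per the methods were made with lumi (a variance-stabilizing transform, then robust splines) and adjusted by ComBat for the 2 experiments. Their versions were not stated. For the scale of the processed values those methods are the only source. From the 45281 probes 18 with shifted cells were left out, none of them of the set. Intensities underwent normexp correction with an offset of 50 in limma 3.58.1 under R 4.3.3. After taking log2 and quantile normalization, probes with a mean above the 25th percentile were tested, 33947 in all. Detection p-values and control probes were not used here, so neqc and a filter on detection, both planned, were not run. The offset damps fold changes of dim probes. The arrays were split into 2 experiments by 2-means clustering of 3 log2 raw signal percentiles (5th, 50th and 95th), with a mean silhouette of 0.73. Each probe was fitted in limma on genotype plus experiment, with two-sided moderated tests and Benjamini-Hochberg adjustment. The number of arrays limits the precision.

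Gene names came from the array annotation (34874 intact probes with 1 symbol, 18 with several, 10371 with none), of which 34796 matched a RefSeq gene. Coordinates and promoter windows came from the RefSeq annotation of GRCm38. The members and the lists were chosen with earlier results of these data known. The genes named were the members, Foxf1, up to 4 genes of each list by smallest adjusted p, and the 5 genes nearest to Pde4b. Prkaca, Creb1, Fos, Nppa and Nppb joined them after their values were seen. The procedure was tested on simulated data. Alternatives covered background correction, scaling, filter, the processed values, the blocks, array weights, the methods' t-test, the mean over probes, each array left out, and, chosen after the data were seen, the heart muscle marker level as a covariate.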

Additional observations from a re-analysis of the deposited data

Results flagged for a closer look

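Pde3b had a low value in Foxf1+/- replicate 6, at a log2 signal of 6.19, while the other Foxf1+/- lungs lay between 6.44 and 6.58. Pde2a had a high value in Foxf1+/- replicate 2, at 8.47, against 7.42 to 7.79 in the other Foxf1+/- lungs. Both gaps passed Dixon's limit for a single array far from the rest of its group. They were 2 of 52 groups checked, where chance alone gives about 1 in 20.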

How the results depend on the processing

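Pde4b kept its direction under all alternatives run. Its fold change was -0.51 as the mean over its 4 probes, 3 of them near the floor, lay between -1.81 and -1.68 when single arrays were left out, and was -1.75 with the heart muscle level as a covariate. For the other 9 members 223 of 231 alternative values moved by less than the spread between replicates, and 8 moved by more. Their sign turned in 9 of the 231, of which 6 were of Pde3a, 2 of Pde4d and 1 of Pde3b, none of them called, with values of -0.11 to -0.00. The counts of calls were less stable. Against 1007 probes, 3 probes of the set and 7 genes of the 7 lists, the authors' processed values with genotype only called 2582, 7 and 16 (with the experiment block, 1343, 4 and 12), the methods' t-test on them called 1861, 4 and 15, and array weights called 5 probes of the set and 11 list genes. Without the experiment block 501 probes were called. Experiment A alone gave 10 probes, 0 of the set and 0 list genes (2911 probes at an unadjusted p under 0.05), and experiment B alone 56, 1 and 0 (4266 probes unadjusted). Leaving out single arrays gave 401 to 1112 probes, 1 to 5 of the set and 5 to 11 list genes. The probe count was 431 without wildtype replicate 1, 446 without Foxf1+/- replicate 5 and 401 without Foxf1+/- replicate 6, the count of the set 5 without wildtype replicate 2 and 1 without Foxf1+/- replicate 5 or 6, and that of the lists 11 without Foxf1+/- replicate 1. Median scaling in place of quantile normalization called 678 probes, 73.3% of them higher, against 58.8% of the 1007. Lungs with the same replicate number deviated with correlations of -0.46 to -0.03, 0 of 6 above 0.1. No Foxf1+/- lung correlated best with its own number. These 6 values gave no sign of pairing by number but are too few to exclude it. With the replicate number as a block in addition to the experiment 149 probes, 1 of the set and 0 list genes were called. The cause of these changes was not tested.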
